A study of Rattus norvegicus with 6 samples.

Results

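The genes described here encode the elastic fibres, basement membranes and proteoglycans of the artery wall, together with fibronectin. The list held 40 genes chosen by name, and 38 of them were measured by a probe set (a group of short DNA probes on the array for 1 transcript) with a single gene symbol, out of 10411 genes measured in the same way. Efemp2 and Gpc4 were not analysed here. Of the 38, 13 belong to the elastic fibre, 10 to the basement membrane and 14 to the proteoglycans and the hyaluronan synthesis enzyme Has2, and Fn1 stands alone. The brightest probe set, by its mean over the 6 arrays, stood for each gene, and 9 of the 38 had further probe sets, 13 in all.

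Elastic fibres let an artery recoil after each pulse. Elastin forms their core, and fibrillin microfibrils form the scaffold on which elastin is laid down. Some of the latent TGF-beta binding proteins, though not all, tether the growth factor TGF-beta to that scaffold. Basement membranes surround smooth muscle cells and underlie the endothelium; they are built from a laminin network and a type IV collagen network, bridged by nidogens and by the heparan sulfate proteoglycans perlecan and agrin. In the brain a further basement membrane separates the vessel from the end-feet of astrocytes. Proteoglycans are proteins carrying long sulfated sugar chains: the small leucine-rich ones bind collagen fibrils, versican and aggrecan bind hyaluronan, and syndecans and glypicans sit on the cell surface as co-receptors for growth factors and matrix.

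RNA came from primary branch resistance arteries of the brain (middle cerebral, posterior cerebral and posterior cerebellar) of Dahl rats, a rat stock known for blood pressure that rises with dietary salt; the labels do not name the substrain or give a blood pressure. All rats ate chow with 0.4% NaCl until 7 weeks of age. The low salt group then stayed on 0.4% NaCl for 12 weeks, and the high salt group was given 8% NaCl, for 11 weeks by one label and 12 weeks by another. Each of the 3 arrays of a diet held RNA pooled from 3 rats, 9 rats per diet, so single animals cannot be followed. Some arteries were frozen and others stored in RNAlater, and no label says which pool had which. The study's design compared the diets over all genes and for hypotheses tied to disease. The values are log2 levels, so that a difference of 1 is a doubling. Smooth muscle and endothelial markers were present on all arrays: Myh11, a smooth muscle myosin, had a mean level of 13.32 and Cldn5, an endothelial junction protein, one of 12.77.

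The arrays were unequal before any diet comparison. Correlations over probe sets ran from 0.980 to 0.987 among the high salt arrays, from 0.919 to 0.968 among the low salt arrays and from 0.926 to 0.988 across diets. On low salt replicate 1 the Gapdh control read 3.30 log2 units higher at its 3′ end than at its 5′ end. On the other arrays that difference ran from 1.94 to 2.69. For the beta-actin control it was 3.20 on low salt replicate 1, against 3.16 to 3.89. Array medians ran from 7.96 to 8.17 with low salt replicate 1 the lowest, and its interquartile range of 2.57 was also the lowest, against up to 3.18. Removing such offsets by median centring moved the median difference of all genes by more than 0.1, from 0.07 to -0.06, and quantile normalization moved it to -0.02, so signs below are relative to that shift.

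No gene of the group passed the test. In the limma fit over all 15866 probe sets (linear models whose error terms borrow from the spread of all probe sets, with Benjamini-Hochberg adjustment), 0 of the 38 had an adjusted p below 0.05, against a background of 0%. The lowest adjusted p was 0.803 among the 38 and 0.540 among all probe sets. Before adjustment 2 of the 38, Fn1 and Fmod, were below 0.05 in the same fit, both higher after high salt; of all genes 5.72% were higher and 0.711% lower at that level. The 95% interval of the difference spanned 0 for 36 of the 38. For 7 of the 38 the lowest high salt array lay above the highest low salt array: Fn1, Bgn, Fmod, Lama4, Agrn, Ltbp2 and Ltbp3. That is 18.4% of the group, where 8.64% of all genes, and 10.9% of those past the 40th percentile of mean level, did the same, and 3.32% of all genes did the reverse; for no member did all high salt arrays lie below all low salt arrays. After median centring 3 of these still did not overlap (Fn1, Lama4 and Fmod; 4.01% of all genes), and after quantile normalization only Fn1 (4.74% of all genes). Leaving out low salt replicate 2 gave 6 members that were lower without overlap, where 16% of all genes were.

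The difference, high salt minus low salt, was positive for 27 of the 38 genes, with a median of 0.21. Over all genes 60% were positive, with a median of 0.07. Well expressed genes ran higher as a class: of the 7230 genes whose mean was past the 40th percentile, 70.6% had a positive difference, with a median of 0.18, and 36 of the 38 genes described here lie above that percentile. Their share of positive differences, 71.1%, was close to that background. By role the median was 0.07 for the elastic fibre genes (8 of 13 positive), 0.23 for the basement membrane genes (8 of 10) and 0.27 for the proteoglycan and hyaluronan genes (10 of 14). After median centring, which shifts all genes equally, these medians were -0.06 (6 of 13 positive), 0.10 (6 of 10) and 0.14 (8 of 14). After quantile normalization they were -0.09 (5 of 13), 0.02 (6 of 10) and 0.09 (8 of 14). The elastic fibre median therefore changed sign with either scaling.

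**Figure D1:**
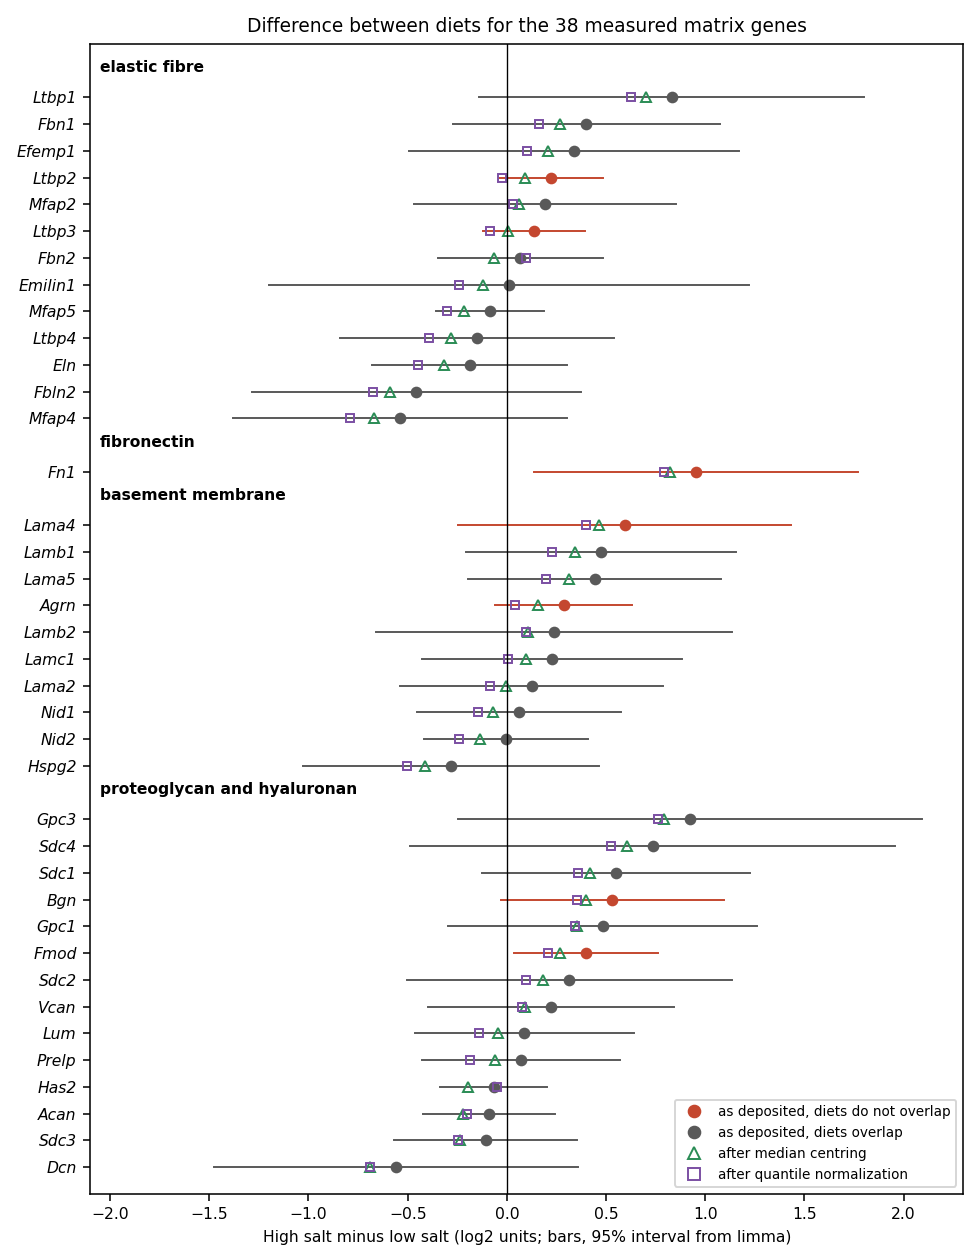
Difference between diets (log2 units, positive where high salt is higher) for the 38 measured genes by role. Circles are the values as deposited with the 95% interval from limma, red where the diets do not overlap; triangles show median-centred and squares quantile-normalized values. The intervals of Fn1 and Fmod are the 2 that leave out 0, and each triangle lies to the left of its circle.

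The 4 promoters printed here are examples, chosen after the values were seen: Fmod and Lama4 had the widest gaps between diets among members with an entry, and Gpc3 and Sdc4 had the largest differences among the genes whose low salt arrays ran with the astrocyte markers. Agrn, Ltbp2, Ltbp3 and Efemp1 also had an entry and are counted below. Each is the 250 bases before the gene's start, 5′ to 3′ on the gene's strand, from RefSeq on GRCr8, and 26 of the 38 genes had an entry in that table. Capitals mark matches on either strand to the GC box GGGCGG (its reverse complement is CCGCCC), the SMAD half-site CAGAC (reverse complement GTCTG) and the TATA box TATAAA. The AP-1 site TGANTCA was searched too.
Fmod, chr13:48045317-48045566, plus strand: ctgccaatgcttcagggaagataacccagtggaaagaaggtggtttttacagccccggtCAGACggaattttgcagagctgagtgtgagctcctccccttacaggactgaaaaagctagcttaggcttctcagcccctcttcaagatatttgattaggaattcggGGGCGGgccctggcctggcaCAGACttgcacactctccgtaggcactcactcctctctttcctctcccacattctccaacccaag
Lama4, chr20:43946648-43946897, plus strand: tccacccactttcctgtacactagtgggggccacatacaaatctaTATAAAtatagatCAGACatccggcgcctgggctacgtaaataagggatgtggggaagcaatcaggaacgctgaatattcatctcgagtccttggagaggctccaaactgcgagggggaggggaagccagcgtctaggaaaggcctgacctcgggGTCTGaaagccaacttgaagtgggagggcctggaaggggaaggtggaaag
Gpc3, chrX:137157599-137157848, minus strand: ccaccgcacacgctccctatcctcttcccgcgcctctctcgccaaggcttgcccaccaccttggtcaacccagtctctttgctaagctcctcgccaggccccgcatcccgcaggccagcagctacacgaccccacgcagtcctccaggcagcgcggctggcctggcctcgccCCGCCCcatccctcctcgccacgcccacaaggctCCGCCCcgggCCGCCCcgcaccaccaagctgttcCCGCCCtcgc
Sdc4, chr3:173592924-173593173, minus strand: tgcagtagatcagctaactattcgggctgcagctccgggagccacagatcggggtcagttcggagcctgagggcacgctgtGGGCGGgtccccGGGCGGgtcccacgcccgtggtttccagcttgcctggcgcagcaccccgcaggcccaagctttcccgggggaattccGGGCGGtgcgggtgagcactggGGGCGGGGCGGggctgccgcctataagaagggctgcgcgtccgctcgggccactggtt

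The GC box is bound by factors of the Sp family, and CAGAC is a half-site of the SMAD factors that act downstream of TGF-beta. Gpc3 held 4 GC boxes and Sdc4 held 5, of which the last 2 share a base; neither held CAGAC. Fmod held 1 GC box and 2 CAGAC matches. Lama4 held 2 CAGAC matches and a TATAAA at positions -205 to -200 (the base before the start is -1), and no GC box. A GC box was found for 19 of the 26 genes (73.1%) and in 30.5% of all 33469 entries of that length. CAGAC was found for 14 of 26 (53.8%) and in 42.9% of all. The 26 were counted by gene, on any entry of the gene, and the background by entry. That background was not limited to the 10411 measured genes, so the shares are not like for like and an excess cannot be judged from them. TATAAA was found in 1 of 26, that of Lama4 (12.9% of all), and TGANTCA in 1 of 26, that of Efemp1 (6.34% of all). These matches describe letters only.

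Fibronectin, a glycoprotein that binds integrins, collagens and heparan sulfate, had the largest difference of the 38. For Fn1 the low salt arrays gave 10.84, 11.81 and 12.04 for replicates 1, 2 and 3, and the high salt arrays gave 12.40, 12.36 and 12.78; values below keep that order. Every high salt array lay above every low salt array, by a gap of 0.33, the widest of the 7 genes without overlap. The mean was 11.56 ± 0.63 (SD, n = 3) after low salt and 12.52 ± 0.23 (SD, n = 3) after high salt. The difference was 0.95 ± 0.33 (SE), with a 95% interval from 0.14 to 1.77, or 1.94-fold, and an adjusted p of 0.803 by limma. Leaving out low salt replicate 1 gave a difference of 0.59, and leaving out low salt replicate 3 gave 1.19. Median centring gave 0.82 and quantile normalization 0.79. The Gapdh control difference as covariate gave 0.64 ± 0.17 (SE). These are whole-tissue samples, in which fewer cells of a type and less RNA per cell cannot be told apart, here and for every gene below.

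Elastin, the core of the fibre, did not separate the diets. Eln read 10.07, 9.36 and 9.76 after low salt and 9.46, 9.44 and 9.71 after high salt. Low salt replicates 1 and 3 lay above the high salt range and replicate 2 below it. The difference was -0.19 ± 0.20 (SE), with an interval from -0.68 to 0.30. The microfibril gene Fbn1, which encodes fibrillin-1, read 9.21, 9.59 and 10.19 after low salt and 9.79, 10.21 and 10.19 after high salt. Only low salt replicate 3 reached into the high salt range, and the difference was 0.40 ± 0.27 (SE). A dimmer Fbn1 probe set gave 0.12 ± 0.31 (SE). Fbn2, a fibrillin best known from development, had a mean below the mean lower quartile of the arrays (6.58) and a difference of 0.07.

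The 4 latent TGF-beta binding proteins went in no common direction. Ltbp2 read 9.53, 9.37 and 9.33 after low salt and 9.57, 9.74 and 9.58 after high salt, a gap of 0.04 between the diets and a difference of 0.22 ± 0.11 (SE). Ltbp3 read 11.00, 11.10 and 11.12 after low salt and 11.35, 11.16 and 11.12 after high salt. Its gap of 0.0015 means that the diets touched, and its difference was 0.14 ± 0.11 (SE). For both genes quantile normalization turned the sign, to -0.03 for Ltbp2 and -0.09 for Ltbp3. Ltbp1 had the largest difference of the elastic fibre genes, 0.83 ± 0.39 (SE), with values of 9.58, 10.48 and 10.70 after low salt and 11.34, 10.45 and 11.45 after high salt. High salt replicate 2 lay within the low salt range, so the diets overlapped. Ltbp4, which also guides elastin assembly, gave -0.15 ± 0.28 (SE), with low salt replicate 3 the highest of the 6 arrays at 11.19.

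The other elastic fibre genes code for microfibril-associated and bridging proteins. Mfap4, a microfibril-associated protein of the vessel wall, gave -0.54 ± 0.34 (SE) and Fbln2, a fibulin found in elastic fibres and basement membranes, -0.46 ± 0.34 (SE), the lowest values among the elastic fibre genes. High salt replicate 1 held the lowest Mfap4 value, 9.43, and the Mfap4 difference was -0.26 without that array and -0.82 without low salt replicate 2. Efemp1, which encodes fibulin-3, gave 0.34 ± 0.34 (SE). Emilin1, a glycoprotein at the elastin and microfibril interface, had the widest spread of the 38 on low salt, with 11.28, 9.32 and 9.91, against 10.34, 10.06 and 10.14 after high salt. Its mean difference of 0.01 ± 0.49 (SE) sat between low salt arrays that lay on both sides of the high salt range. Mfap2 gave 0.19 and Mfap5 -0.08; both encode microfibril-associated glycoproteins.

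Among the basement membrane genes, Lama4, the laminin alpha 4 chain of vessel walls, had the largest difference. It read 8.56, 9.72 and 9.75 after low salt and 9.88, 9.84 and 10.09 after high salt. The diets did not overlap, with a gap of 0.09, but low salt replicates 2 and 3 were close to the high salt arrays and replicate 1 lay far below. The difference of 0.59 ± 0.34 (SE; 1.51-fold; adjusted p = 0.803 by limma) was 0.20 without low salt replicate 1, or 0.80 if low salt replicate 3 was left out. Agrn, which encodes the heparan sulfate proteoglycan agrin, read 9.60, 9.79 and 10.07 after low salt and 10.07, 10.17 and 10.07 after high salt. Low salt replicate 3 fell 0.0035 short of the high salt range, and the difference was 0.29 ± 0.14 (SE).

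The remaining laminin chains overlapped between diets. Lamb2, the beta 2 chain, read 12.61, 11.35 and 12.51 after low salt and 12.54, 12.53 and 12.11 after high salt. Its difference of 0.24 ± 0.36 (SE) rested on low salt replicate 2, and it was -0.17 without that array and 0.46 without low salt replicate 1. Lamc1, the gamma 1 chain shared by most laminins, read 10.60, 11.24 and 11.63 after low salt and 11.49, 11.27 and 11.40 after high salt, a difference of 0.23 ± 0.27 (SE). Low salt replicates 1 and 2 lay below the high salt range and replicate 3 above it. Lamb1 (beta 1) gave 0.47 ± 0.28 (SE) and Lama5 (alpha 5) 0.44 ± 0.26 (SE), both with low salt replicates 1 and 2 below the high salt arrays and replicate 3 not. A dimmer Lama5 probe set, below the lower quartile, gave 0.03 ± 0.09 (SE). Lama2 (alpha 2) gave 0.12 ± 0.27 (SE).

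Agrin, above, is a linker of these networks, and the other linkers measured here are the nidogens and perlecan. Nid1, nidogen 1, read 11.26, 11.91 and 11.97 after low salt and 11.68, 11.80 and 11.84 after high salt. Its difference was 0.06 ± 0.21 (SE), and Nid2 gave -0.01 ± 0.17 (SE). Hspg2, which encodes perlecan, had the lowest difference of the basement membrane genes: 9.40, 8.22 and 9.04 after low salt against 8.54, 8.71 and 8.56 after high salt. Low salt replicates 1 and 3 lay above all high salt arrays and replicate 2 below them, and the difference of -0.28 ± 0.30 (SE) was -0.03 without low salt replicate 1, or -0.62 if low salt replicate 2 was left out.

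**Figure D2:**
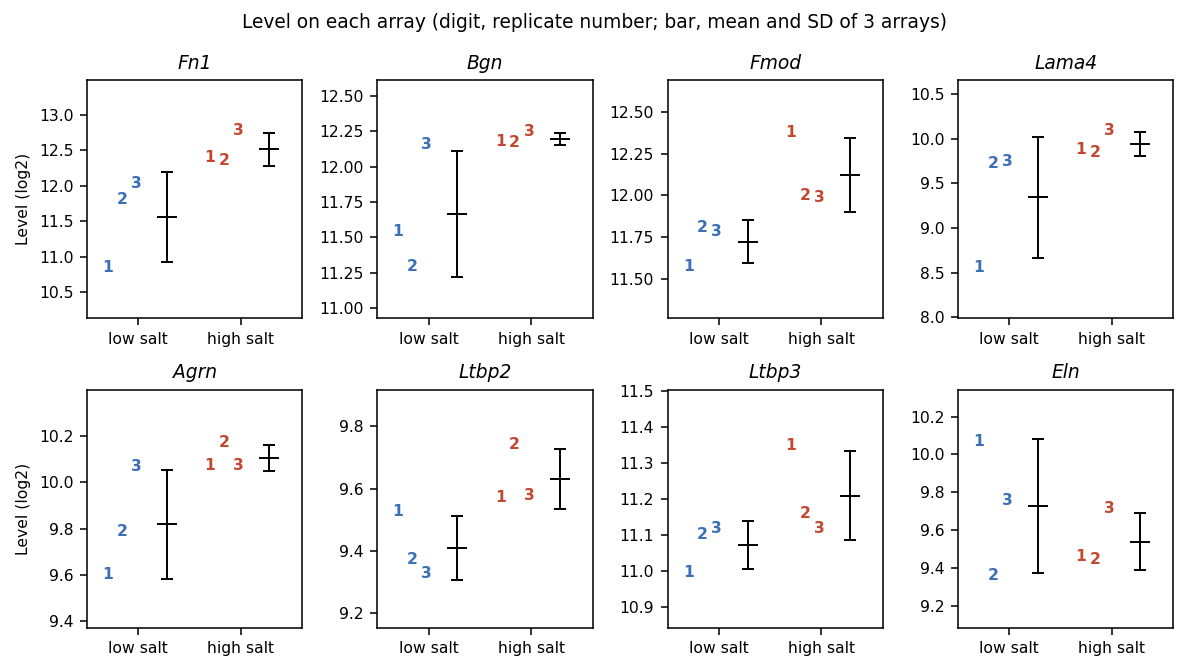
Log2 level on each array for the 7 genes whose diets did not overlap (Fn1, Bgn, Fmod, Lama4, Agrn, Ltbp2, Ltbp3) and for Eln, with digits for replicate numbers and bars for the mean and SD of 3 arrays; each panel has its own axis range. For Bgn, Agrn and Ltbp3 the highest low salt array touches the high salt arrays, while Fn1 has a gap of 0.33.

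Small leucine-rich proteoglycans coat collagen fibrils and bind TGF-beta. Of the 5 among the 38 genes (Dcn, Bgn, Lum, Fmod and Prelp), 2 were higher without overlap between diets, where 8.64% of all genes were; Ogn (-0.23), Omd (-0.26), Aspn (0.18) and Chad (-0.09), further members of that family, overlapped. Fmod, fibromodulin, read 11.58, 11.81 and 11.78 after low salt and 12.38, 12.00 and 11.99 after high salt, with a gap of 0.18. The difference was 0.40 ± 0.15 (SE; 1.32-fold; interval 0.04 to 0.76), with an adjusted p of 0.803 by limma, and leaving out any 1 array gave 0.27 to 0.46. Bgn, biglycan, read 11.54, 11.29 and 12.16 after low salt and 12.17, 12.17 and 12.24 after high salt. The 3 high salt arrays agreed closely (SD 0.04), while low salt replicate 3 came within 0.0097 of them and the other two lay well below. The difference was 0.53 ± 0.23 (SE; 1.45-fold; adjusted p = 0.803 by limma), from 0.35 without low salt replicate 2 to 0.78 without low salt replicate 3.

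Decorin, the proteoglycan most closely related to biglycan, had the opposite sign. Dcn read 13.06, 12.31 and 13.11 after low salt and 11.56, 12.56 and 12.69 after high salt, a difference of -0.56 ± 0.37 (SE). The lowest array was high salt replicate 1, and the difference was -0.20 without it and -0.82 without low salt replicate 2. Lum (lumican) gave 0.09 ± 0.22 (SE) and Prelp 0.07 ± 0.20 (SE); both were negative after either scaling, to -0.14 for Lum and -0.18 for Prelp by quantile normalization.

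The hyaluronan-binding proteoglycans and the hyaluronan synthase showed no separation. Vcan, versican, read 7.83, 8.13 and 8.71 after low salt and 8.46, 8.21 and 8.66 after high salt. Low salt replicates 1 and 2 lay below the high salt arrays and replicate 3 above them, and the difference was 0.22 ± 0.25 (SE). The 4 other Vcan probe sets were all below the lower quartile, with differences from -0.06 to 0.07. Acan, aggrecan, gave -0.09 ± 0.14 (SE), and its second probe set 0.04 ± 0.12 (SE). Of the 13 further probe sets of the 38 genes, 3 had the opposite sign to the main one. Has2, which makes hyaluronan, lay below the lower quartile with a difference of -0.07.

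The syndecans, transmembrane heparan sulfate carriers, differed in how the low salt arrays fell. Sdc1 read 8.39, 8.48 and 8.79 after low salt and 9.45, 8.52 and 9.34 after high salt, a difference of 0.55 ± 0.27 (SE). High salt replicate 2 lay within the low salt range and the other high salt arrays above it. The second Sdc1 probe set, below the lower quartile, gave 0.18 ± 0.12 (SE). Sdc4 read 10.61, 12.55 and 11.34 after low salt and 12.44, 11.89 and 12.37 after high salt. Low salt replicate 2 was the highest of all 6 and replicates 1 and 3 the lowest, so the difference of 0.73 ± 0.50 (SE) overlapped and ran from 0.29 without low salt replicate 1 to 1.26 without low salt replicate 2. Sdc2 read 9.83, 10.89 and 10.65 after low salt and 10.97, 10.32 and 11.01 after high salt, with 0.31 ± 0.33 (SE). Its second probe set gave 0.38 ± 0.19 (SE). Sdc3, best known from neural tissue, read 8.42, 7.74 and 8.02 after low salt and 7.87, 7.99 and 8.00 after high salt, with -0.11 ± 0.19 (SE), and low salt replicates 1 and 3 lay above all high salt arrays.

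Glypicans carry heparan sulfate on a lipid anchor. Gpc3 had the second largest difference of the 38, 0.92 ± 0.48 (SE; 1.90-fold; adjusted p = 0.803 by limma), from 8.21, 9.58 and 7.74 after low salt and 9.68, 9.25 and 9.36 after high salt. Low salt replicate 2 lay among the high salt arrays and replicates 1 and 3 lay more than 1 log2 unit below them. The difference was 0.54 without low salt replicate 3, or 1.46 if low salt replicate 2 was left out, and the latter fit gave an adjusted p of 0.110 by limma, the lowest for any of the 38 under any setting tried. Gpc1 read 7.96, 8.75 and 7.56 after low salt and 8.82, 8.44 and 8.46 after high salt, a difference of 0.48 ± 0.32 (SE) in the same array pattern.

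The low salt arrays varied more among themselves than the high salt arrays. The SD was larger among the low salt arrays for 28 of 38 genes (73.7%; 71% of all genes), with a median SD of 0.45 against 0.22 among the high salt arrays. Low salt replicate 1 held the lowest or the highest of the 6 values for 26 of 38 genes (68.4%; 65.6% of all genes). In 4 genes (Sdc4, Gpc3, Gpc1 and Efemp1; 10.5%, against 16.5% of all genes) low salt replicates 1 and 3 fell below the high salt range and replicate 2 did not. In 4 others (Eln, Hspg2, Fbln2 and Sdc3; 10.5%, against 5.80% of all genes) replicate 2 fell below the high salt range and replicates 1 and 3 above it. In 6 (Sdc1, Fbn1, Lamc1, Lamb1, Vcan and Lama5; 15.8%, against 5.27% of all genes) replicates 1 and 2 fell below and replicate 3 did not. These patterns were picked out after the values were seen.

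**Figure D3:**
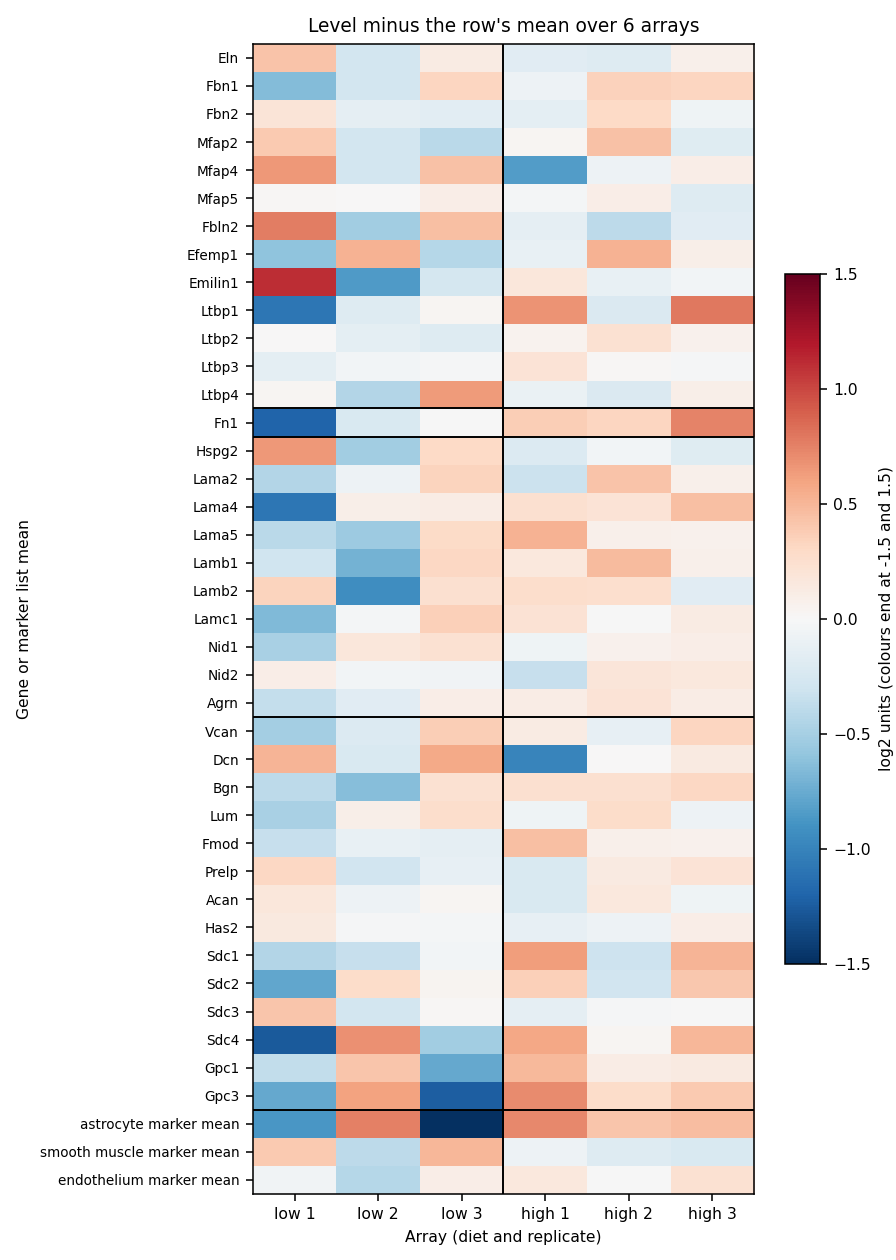
Level of each of the 38 genes on each array minus its own mean over the 6 arrays, in log2 units, with the mean of the astrocyte, smooth muscle and endothelium markers at the foot; black lines separate the roles and the diets. The low salt columns are darker and differ from each other, and the high salt columns are paler for most genes, with high salt replicate 1 lowest for Dcn and Mfap4.

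Markers of other cells differed between the same arrays. The mean of 10 astrocyte markers, such as Gfap and Aqp4, was 9.29, 10.91 and 8.67 after low salt and 10.89, 10.58 and 10.63 after high salt, and 9 of the 10 had a positive difference (median 1.00). On low salt replicates 1 and 3, Aqp4 (6.26 and 5.02) and Fabp7 (5.68 and 5.50) lay below the lower quartile of those arrays (6.65 and 6.58); on the other 4 arrays both ranged from 8.41 to 10.47. The mean of 9 smooth muscle markers was 11.91, 11.12 and 12.00 after low salt and 11.44, 11.31 and 11.29 after high salt, and 0 of the 9 had a positive difference (median -0.17). So low salt replicate 2 was high in astrocyte and low in smooth muscle markers, and replicates 1 and 3 the reverse. The 9 endothelium markers had a median difference of 0.17 (8 of 9 positive), and the 11 fibroblast and meninges markers one of 0.56 (10 of 11). The 3 red blood cell genes had a median of 0.93 (3 of 3 positive, with no overlap for Hbb alone). The 8 macrophage and microglia markers had a median of 0.26 (6 of 8 positive), and C1qa (1.19) and Aif1 (1.10) did not overlap. That is 25% of this short list, where 8.64% of all genes were higher with no overlap. No marker passed the test. Astrocytes and fibroblasts also make several of the matrix genes.

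With the astrocyte marker mean as a covariate the difference of Gpc3 was 0.03 ± 0.13 (SE), of Gpc1 -0.09 ± 0.14 (SE), of Sdc4 near 0 with an SE of 0.44 and of Efemp1 -0.13 ± 0.33 (SE). These 4 were picked because low salt replicates 1 and 3, but not 2, fell below the high salt range. The astrocyte mean did the same, so a smaller difference with that covariate follows from the choice and is given as a description. Sdc2 went from 0.31 to 0.06 ± 0.42 (SE). The same covariate gave 0.89 ± 0.18 (SE) for Bgn, 0.92 ± 0.21 (SE) for Lamb1, 0.74 ± 0.29 (SE) for Lama5, 0.83 ± 0.27 (SE) for Lamb2 and 0.92 ± 0.46 (SE) for Fn1. For Bgn, Lamb1 and Lama5 the low salt arrays ran in the reverse order of the astrocyte mean. Lamb2 was lowest on the array where that mean was highest. Larger differences for Bgn and these laminin genes follow from that order and are likewise given as a description. All 10 basement membrane genes were positive in that fit, with a median of 0.33, where 62.6% of all genes were positive. Nid1 (0.01 ± 0.29 SE) and Nid2 (0.05 ± 0.23 SE) were near 0. Related lists, both described below, moved the same way. Positive were 13 of 14 other basement membrane genes and 15 of 17 matrix receptors and proteins of their complexes. Of 9 smooth muscle markers 6 were positive, against 0 without the covariate, and the endothelium median rose from 0.17 to 0.43. The proteoglycan and hyaluronan median was 0.08. No member passed the test, and with 6 arrays it leaves 3 degrees of freedom. The markers differ by diet as well as by array, so RNA of other cells and diet are only partly separable, and their part in these results was not tested beyond that fit.

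**Figure D4:**
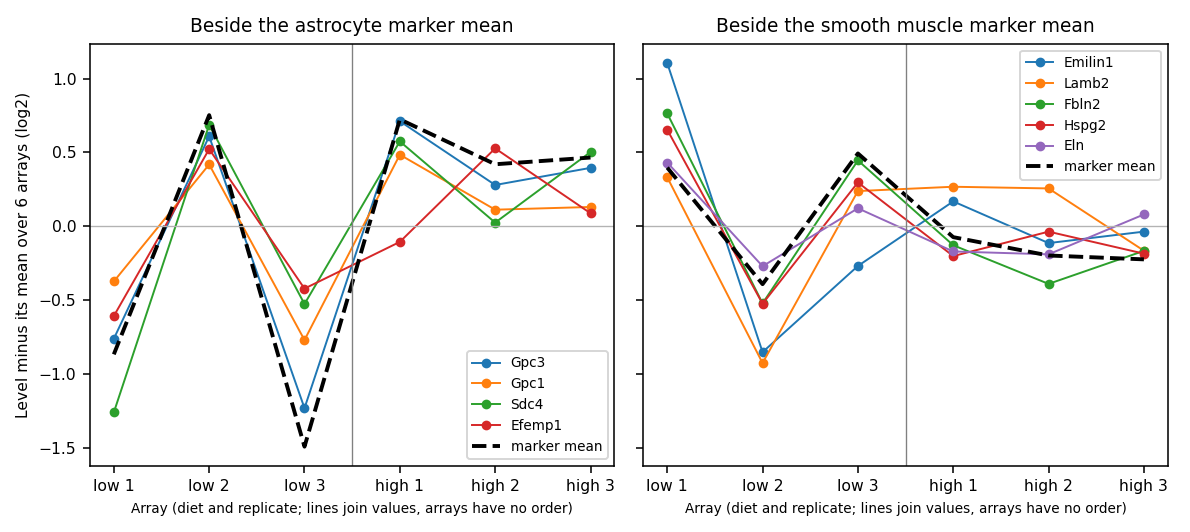
Log2 level minus the mean over 6 arrays, by array, for Gpc3, Gpc1, Sdc4 and Efemp1 beside the astrocyte marker mean (left, dashed) and for Emilin1, Lamb2, Fbln2, Hspg2 and Eln beside the smooth muscle marker mean (right, dashed). In the left panel low salt replicate 2 lies near the high salt arrays and replicates 1 and 3 below. In the right panel low salt replicate 2 is the lowest of the 6 arrays for all 5 genes and for the marker mean. The 5 are from 7 genes with low salt replicate 2 below the high salt range and replicate 1 above it (18.4%, against 12.4% of all genes). Genes of both panels were picked by where their low salt arrays lay, so their shared shape follows from the choice.

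Other genes of the same pathways were read from 6 further lists, and 0 genes of any list passed the limma test. Of 16 genes for elastic fibre assembly and cross-linking, 10 were positive, with a median of 0.06. Higher with no overlap were 3 (18.8%, against 8.64% of all genes). Loxl1, a lysyl oxidase that cross-links elastin, gave 0.29 ± 0.15 (SE) with no overlap between diets. Lox, the main cross-linking enzyme, gave -0.50 ± 0.21 (SE) with overlap. Glb1 (0.61 ± 0.21 SE) and Ctsa (0.54 ± 0.25 SE), lysosomal enzymes whose complex with a splice form of Glb1 helps elastin leave the cell, did not overlap either. With median centring the diets overlapped for Loxl1 and Ctsa, and this list's median was -0.07. With quantile normalization they overlapped for Loxl1 but not for Glb1 and Ctsa, and the list's median was 0.02.

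Of 14 other basement membrane genes, 11 were positive (median 0.17) and none separated the diets. The type IV collagen chains Col4a1 and Col4a2, which lie head to head in the genome, gave 0.08 ± 0.35 (SE) and -0.38 ± 0.31 (SE). Among 17 receptors for matrix proteins, counted with proteins of their complexes such as Dmd and Sgca, 12 were positive (median 0.14). Higher with no overlap were 2 (11.8%, against 8.64% of all genes). Dag1, dystroglycan, which binds laminin, agrin and perlecan, read 9.76, 9.82 and 10.32 after low salt and 10.53, 10.66 and 10.58 after high salt, a difference of 0.62 ± 0.17 (SE). Itgb5, an integrin beta chain, gave 0.68 ± 0.20 (SE). Both kept their separation under median centring and quantile normalization. The median of these 17 was 0.01 with median centring and -0.02 with quantile normalization.

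Of 30 other proteoglycans and hyaluronan genes, 16 were positive (median 0.04; -0.09 after median centring). Srgn, serglycin of blood cells and endothelium, was higher with no overlap at 0.34 ± 0.19 (SE). Tgfbr3 (betaglycan, -0.29 ± 0.09 SE), Ncan (neurocan, -0.16 ± 0.09 SE) and Gpc2 (-0.17 ± 0.10 SE) were lower with no overlap, the direction that 3.32% of all genes took. With median centring or quantile normalization the diets overlapped for Srgn, and with quantile normalization for Gpc2. As a list, 0 were higher and 9 lower with no overlap after median centring (13.9% of all genes were lower), and 0 and 5 after quantile normalization (7.66%).

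The longest list was that of genes for building and trimming the sugar chains of proteoglycans, including the transporters Slc35b2 and Slc26a2. Of 36 measured, 28 were positive, with a median of 0.31 (0.18 with median centring, 0.12 with quantile normalization), and 9 were higher and 1 lower with no overlap (8.64% and 3.32% of all genes). Ext1, which polymerises heparan sulfate, read 8.66, 9.44 and 9.11 after low salt and 9.92, 10.43 and 10.01 after high salt, a difference of 1.06 ± 0.24 (SE; adjusted p = 0.803 by limma). Hexa, a lysosomal hexosaminidase, gave 0.56 ± 0.13 (SE). Xylt2, which starts the chains, gave 0.65 ± 0.17 (SE) and Hpse, the heparan sulfate cutting enzyme heparanase, 0.70 ± 0.21 (SE). The gene lower with no overlap was Ndst1, which sulfates heparan sulfate, at -0.38 ± 0.19 (SE). With the astrocyte mean as covariate the list's median was 0.16. After median centring 5 of the 36 were higher with no overlap (4.01% of all genes) and after quantile normalization 4 (4.74%).

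Of 25 proteases and inhibitors that act on these proteins, 20 were positive (median 0.21, and 0.08 after median centring). Higher with no overlap were 3 (12%, against 8.64% of all genes). Mmp14, a membrane-bound metalloproteinase, read 10.51, 11.24 and 10.82 after low salt and 11.67, 11.67 and 11.45 after high salt, a difference of 0.74 ± 0.20 (SE). Ctsk, a collagen- and elastin-degrading cathepsin, gave 1.03 ± 0.40 (SE) and Furin, which activates Mmp14 and other proproteins, 0.23 ± 0.12 (SE). For these 3 the diets did not overlap as deposited or after quantile normalization, and after median centring only those of Mmp14 did not. Lower with no overlap were 3 of the list after median centring (13.9% of all genes) and 2 after quantile normalization (7.66%).

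**Figure D5:**
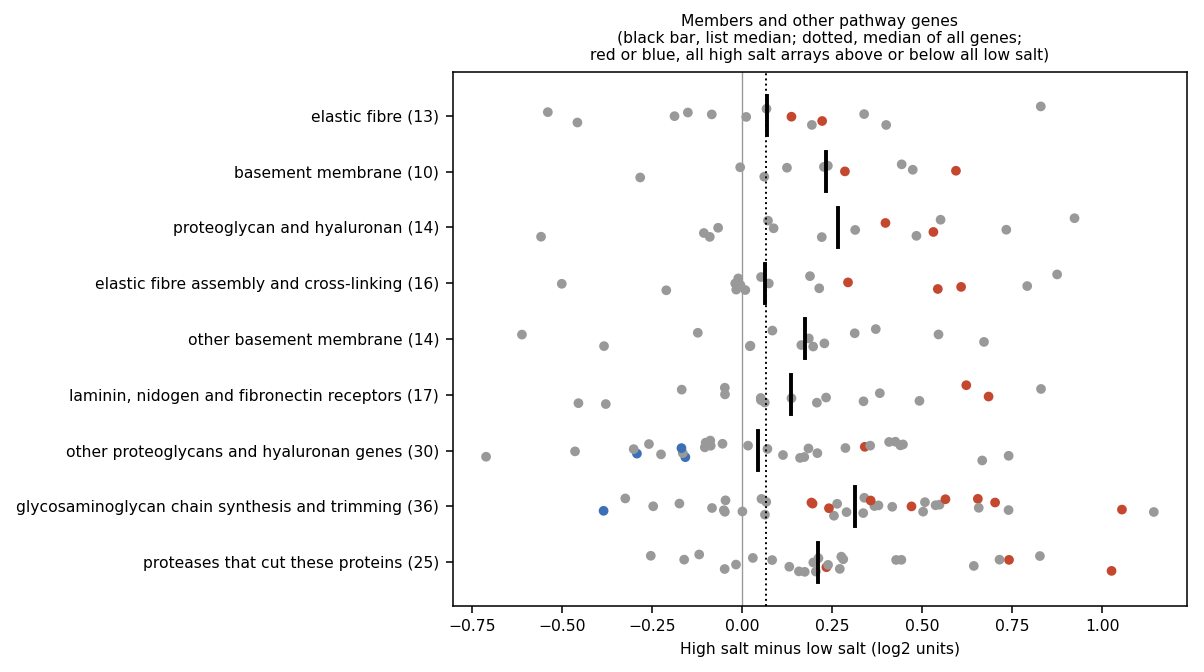
Difference between diets in log2 units for the members by role and for the genes of 6 other pathway lists, 1 point per gene, with the number of genes in brackets; Fn1 is not shown. Black bars mark list medians and the dotted line the median of all genes, 0.07; red and blue points are genes whose diets do not overlap. The list of sugar chain genes has the median farthest to the right, 0.31, and 9 red points among its 36.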

How the data were processed

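Each pool's RNA went through 2 rounds of amplification and onto 1 Affymetrix rat array, per the labels. The deposited values are log2 levels made by the authors with RMA, per the submitters' processing notes; no version was found in the labels, and base 2 was read from the range of the values and the use of RMA. Of 15923 rows, 57 were control probe sets and stayed out. Of the rest, 12783 had 1 gene symbol, 312 several and 2771 none here, and Entrez identifiers tied 12748 to the GRCr8 RefSeq table, which changed 0 symbols.

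The fit was limma (version 3.58.1, R version 4.3.3; lmFit and eBayes) on 15866 probe sets, 3 arrays against 3, without a block, with Benjamini-Hochberg adjustment over all of them. SDs are over the 3 pools of a diet, and the number of arrays limits the precision. On simulated data for this comparison, with 200 of 15866 probe sets changed, it recovered 0% of changes of 0.5 log2 units, 39% of changes of 1 and 80% of changes of 2. At a change of 2, 17 of the 177 calls were of unchanged probe sets. Each probe set was simulated on its own, without the differences between arrays that many genes share here. The shares recovered need not hold for the real arrays.

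The 40 genes and the lists were chosen with earlier results of these data known. Every measured member is accounted for. Values of every array are given for members without overlap between diets and for a set of named core genes, with a few others (Ltbp1, Emilin1, Gpc1, Gpc3, Dag1, Ext1 and Mmp14) added after their values were seen; from each other list up to 4 genes without overlap and of lowest p are named, and Lox, Ndst1, Col4a1 and Col4a2 were added likewise. Alternatives were quantile normalization, median centring, array weights, robust and trended variances, a block for replicate number, each array left out in turn, a filter on mean value (40th percentile), averaged probe sets, adjustment over genes in place of probe sets, a threshold of 0.1, and covariates for astrocyte markers and for the Gapdh 3′ to 5′ control difference.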

Additional observations from a re-analysis of the deposited data

How the results depend on the processing

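Under every alternative run, 0 of the 38 genes had an adjusted p below 0.05 by limma. The number higher without overlap was 7 as deposited, 3 with median centring, 1 with quantile normalization, and 7 to 13 when 1 array was left out: 11 if that was low salt replicate 2 and 13 if it was low salt replicate 3, where fewer arrays make non-overlap easier (25.2% and 13.9% of all genes were higher). Leaving out low salt replicate 2 also gave 6 members lower without overlap, against 0 as deposited, and 16% of all genes were lower then. The number of elastic fibre genes higher was 8 as deposited and 5 after quantile normalization. The basement membrane median of 0.23 moved to 0.025 by quantile normalization and to 0.045 by array weights (5 of 10 higher), and 0.11 to 0.41 with 1 array left out, the highest without low salt replicate 3. The estimation of array weights stopped before convergence.

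The sign of the difference turned for the genes that follow. Median centring gave -0.063 for Fbn2, -0.12 for Emilin1, -0.0062 for Lama2, -0.069 for Nid1, -0.043 for Lum and -0.059 for Prelp. Quantile normalization gave -0.24 for Emilin1, -0.027 for Ltbp2, -0.087 for Ltbp3, -0.086 for Lama2, -0.15 for Nid1, -0.14 for Lum and -0.18 for Prelp. Array weights gave -0.14 for Lama2, -0.026 for Lamc1, -0.10 for Nid1, -0.031 for Vcan and -0.10 for Lum. The astrocyte covariate gave 0.056 for Eln, 0.059 for Fbln2, -0.13 for Efemp1, 0.31 for Ltbp4, 0.19 for Hspg2, 0.046 for Nid2, 0.0022 for Acan, 0.099 for Sdc3, -0.00054 for Sdc4 and -0.091 for Gpc1. The Gapdh covariate gave -0.016 for Lama2, -0.11 for Nid1 and -0.026 for Lum. Without a change of sign it lowered Fn1 from 0.95 to 0.64, Lama4 from 0.59 to 0.30 and Ltbp1 from 0.83 to 0.52. It raised Mfap2 from 0.19 to 0.43 and Lamb2 from 0.24 to 0.46. The cause was not tested. With 1 array left out, the difference ran from -0.067 to 0.18 for Fbn2, -0.41 to 0.57 for Emilin1, -0.41 to 0.13 for Ltbp4, -0.064 to 0.32 for Lama2, -0.17 to 0.46 for Lamb2, -0.050 to 0.46 for Lamc1, -0.17 to 0.19 for Nid1, -0.096 to 0.17 for Nid2, -0.13 to 0.24 for Lum, -0.056 to 0.24 for Prelp, -0.19 to 0.0026 for Acan and -0.27 to 0.075 for Sdc3.

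With the replicate block 0 members were called, the medians were as without it, and the lowest adjusted p over all genes was 0.893 by limma. Deviations of same-numbered arrays correlated at 0.04, -0.27 and 0.04, and those of differently numbered arrays at -0.39 to 0.37. With 3 arrays per diet these values cannot show whether same-numbered arrays were handled together, which was not tested. In simulated data with 3 arrays per diet, changes of 0.5 log2 units were not recovered, and 39% of changes of 1 were. Changes the size of the largest difference among the 38, 0.95 for Fn1, or smaller may therefore have gone unseen here.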

Other observations

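Lysosomal enzymes of sugar chain and glycoprotein breakdown were read together after their values had been seen, so no test is given. The 8 picked all had a positive difference (60% of all genes; 70.6% of genes past the 40th percentile of mean level), with a median of 0.53: Arsb (1.14), Glb1 (0.61), Hexa (0.56), Ctsa (0.54), Ids (0.51), Gusb (0.50), Naglu (0.42) and Neu1 (0.05). The diets did not overlap for 3 of them, Glb1, Hexa and Ctsa (8.64% of all genes were higher without overlap). Of the hyaluronan-degrading enzymes, left out of the 8, Hyal2 gave 0.21 ± 0.34 (SE) and Hyal3 -0.71 ± 0.52 (SE). With the astrocyte marker mean as covariate the 8 were positive with a median of 0.30, from 0.06 for Ids and Gusb to 0.69 for Naglu, and Arsb was at 0.25. None passed the limma test.

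Dpt, which encodes dermatopontin, a matrix protein that binds decorin, was picked out after its values were seen. It read 9.57, 8.24 and 10.08 after low salt and 7.58, 8.35 and 7.75 after high salt, a difference of -1.40 ± 0.50 (SE), the lowest of all 10411 genes, with an adjusted p of 0.803 by limma. The other 10 fibroblast and meninges markers had positive differences, from 0.23 to 1.07. Low salt replicate 2 lay within the high salt range for Dpt, and with the astrocyte mean as covariate the difference was -0.50.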
